A study of Mus musculus with 18 samples.

Results

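Immediate early genes are switched on within minutes of a stimulus, without new protein synthesis, by kinase signalling that ends on factors already bound at their promoters. In neurons the stimulus is synaptic activity and calcium entry; in glia and vessels it can be growth factors or stress. Described here are 10 such genes: the transcription factors Fos, Jun, Junb, Egr1, Egr3, Nr4a1, Nr4a2 and Klf4, and the phosphatases Dusp1 and Dusp6, which switch off mitogen-activated protein kinases. All probe sets annotated to exactly 1 of these 10 genes were taken: 13 of 22626 on the cortex A chip, 5 of 22511 on the cortex B chip and 18 of 45037 in the rest table, 36 of 90174 in all. The 10 genes are among 18193 named by a probe set with 1 gene.

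The samples were brain RNA of mice at postnatal day 7. The Brca1 conditional knockouts (KO) had 1 floxed allele, in which Cre can remove exons 5 to 13, over 1 null allele, in which a neo cassette lies inverted at exon 11. Cre was under the nestin promoter, whose main site of activity is the neural progenitor; cells of other origin, such as microglia, lie largely outside that lineage. Wild-type (WT) mice were the controls, and whether they carried Cre or a floxed allele is not stated, nor are strain and sex. Cortex of 3 KO and 3 WT replicates was read on an A chip and a B chip, and samples that the submitters titled rest (their source is named as P7 brain) on an array with both probe set collections; the labels do not define rest. Many signals are blank in the tables: A chip arrays list 54% to 58% of their probe sets, B chip arrays 33.6% to 42.6% and rest arrays 49.2% to 51.6%. The Y-linked Eif2s3y was listed on KO replicates 1 and 2 of all 3 tables and on no other array, so sex is partly joined with genotype. The 1 Brca1 probe set listed on all arrays read 52.3 ± 8.73 in KO and 41.3 ± 6.65 in WT on the A chip (SD, n = 3 each; limma adjusted p = 0.496), and which exon it reads is not given. Of the excitatory cortical neuron list, 7 of 7 genes on the A chip and 8 of 9 in the rest table were listed, Tbr1 and Neurod6 in both, so rest samples are not free of these markers; Emx1 was the 1 gene blank in the rest table. Of the cerebellum, hindbrain and thalamus list, 6 of 11 genes on the A chip and 9 of 11 in the rest table were listed. En1, Gbx2 and Hoxb3 were blank in cortex and listed in the rest table, Hoxb2 and Hoxb4 were blank in both, and Calb1 and Zic1 were listed in both. Summed over this list's tested genes, with blanks as 0, rest arrays read 3728 to 5740 in KO and 3841 to 7325 in WT. For the excitatory list the rest sums were 1533 to 2637 in KO and 2309 to 2523 in WT. Rest arrays thus differed in these markers within a genotype, and the part of this in the results was not tested.

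Promoter sequences were matched for 8 of the 10 genes, not for Egr1 and Egr3, and show only the stretch next to the annotated start. The 250 bases before the annotated start are printed for the 4 genes called in the cortex and for Fos and Nr4a2, from RefSeq (build GRCm38.p6), each on its gene's strand. Capitals mark the core of the cAMP response element, where CREB binds: the short form TGACG or its reverse complement CGTCA, and the full palindrome TGACGTCA, which contains both. The stretches lie at chr4:95052223-95052472 for Jun (minus strand), chr4:55532476-55532725 for Klf4 (minus), chr17:26508473-26508722 for Dusp1 (minus), chr10:99262981-99263230 for Dusp6 (plus), chr12:85473640-85473889 for Fos (plus) and chr2:57124004-57124253 for Nr4a2 (minus).
Jun: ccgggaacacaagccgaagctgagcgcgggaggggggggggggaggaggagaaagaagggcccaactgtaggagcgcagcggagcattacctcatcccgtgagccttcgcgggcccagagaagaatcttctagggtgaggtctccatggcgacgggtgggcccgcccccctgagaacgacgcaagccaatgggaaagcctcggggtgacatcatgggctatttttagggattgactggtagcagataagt
Klf4: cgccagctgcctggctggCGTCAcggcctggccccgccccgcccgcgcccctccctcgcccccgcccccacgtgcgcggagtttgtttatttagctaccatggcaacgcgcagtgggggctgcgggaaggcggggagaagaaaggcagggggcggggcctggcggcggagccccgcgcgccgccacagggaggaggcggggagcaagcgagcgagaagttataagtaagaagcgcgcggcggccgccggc
Dusp1: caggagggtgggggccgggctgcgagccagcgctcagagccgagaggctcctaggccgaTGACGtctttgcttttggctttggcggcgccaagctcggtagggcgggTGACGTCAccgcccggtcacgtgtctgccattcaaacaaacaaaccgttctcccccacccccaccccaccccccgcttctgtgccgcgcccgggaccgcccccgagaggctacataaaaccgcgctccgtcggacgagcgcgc
Dusp6: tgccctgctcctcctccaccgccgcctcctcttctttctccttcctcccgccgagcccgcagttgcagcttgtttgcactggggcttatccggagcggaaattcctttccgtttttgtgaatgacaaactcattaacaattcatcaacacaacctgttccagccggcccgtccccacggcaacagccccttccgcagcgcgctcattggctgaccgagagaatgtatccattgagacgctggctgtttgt
Fos: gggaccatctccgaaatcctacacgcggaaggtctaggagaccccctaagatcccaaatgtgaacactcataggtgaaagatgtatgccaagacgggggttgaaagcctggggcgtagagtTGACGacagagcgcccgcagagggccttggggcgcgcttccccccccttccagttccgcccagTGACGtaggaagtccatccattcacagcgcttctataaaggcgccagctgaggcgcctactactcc
Nr4a2: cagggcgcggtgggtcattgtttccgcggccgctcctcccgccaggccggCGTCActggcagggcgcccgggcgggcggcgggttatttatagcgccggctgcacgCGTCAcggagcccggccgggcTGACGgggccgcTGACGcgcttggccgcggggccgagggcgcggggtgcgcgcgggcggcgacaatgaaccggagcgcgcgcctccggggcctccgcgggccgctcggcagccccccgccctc

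Searched on both strands, the short form was present in 6 of the 8 matched promoters, against 17.8% of 32851 promoters of that length. Nr4a1 and Nr4a2 held 4 copies each, Dusp1 held 3, Fos 2 and Junb and Klf4 1 each, while Jun and Dusp6 held 0. The full palindrome was in the Dusp1 promoter alone among the 8, 143 to 136 bases before the start, where it accounts for 2 of its 3 short forms; 1.55% of all promoters held it. The AP-1 motif TGANTCA and the CArG box, to which serum response factor binds, were in 0 of the 8 windows (6.75% and 1.47% of all promoters). The short form contains CG, and the 8 windows were richer in G and C (56.4% to 80%) than the median promoter (52.4%). The 4 called genes thus divide into Dusp1 and Klf4 with the short form and Jun and Dusp6 without these letters in this window.

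In the cortex, Jun, Klf4, Dusp1 and Dusp6 rose in KO by 1.46- to 2.27-fold in mean signal. The highest ratio, that of Klf4, is set against WT readings near the floor. Egr1 and Nr4a2 had higher signals in KO on all arrays of at least 1 probe set without passing the test, and Fos, Junb and Nr4a1 were listed on all 3 KO arrays but on 1 WT array each. Egr3 did not differ beyond its spread. Signals are MAS5 signals scaled within a table; a log2 change is KO minus WT on log2(signal + 16), which understates changes of dim probe sets, and a probe set is called at a limma adjusted p under 0.05 over all probe sets tested. On the A chip 4 of 8 tested probe sets of these genes were called higher and 0 lower, where 2.3% of all 12065 tested probe sets were called higher and 0.713% lower. An unadjusted p under 0.05 was reached by 7 of the 8, against 15.7% of all tested. In 7 of the 8 every KO array stood above every WT array, as it did for 11.6% of all tested. The median log2 change was 0.56 for the 8, against -0.01 for all tested. The genes were named with earlier results of these arrays known, so these counts describe them and are no independent evidence. In such bulk samples, a changed number of cells of a type and a changed level per cell cannot be told apart.

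**Figure D1:**
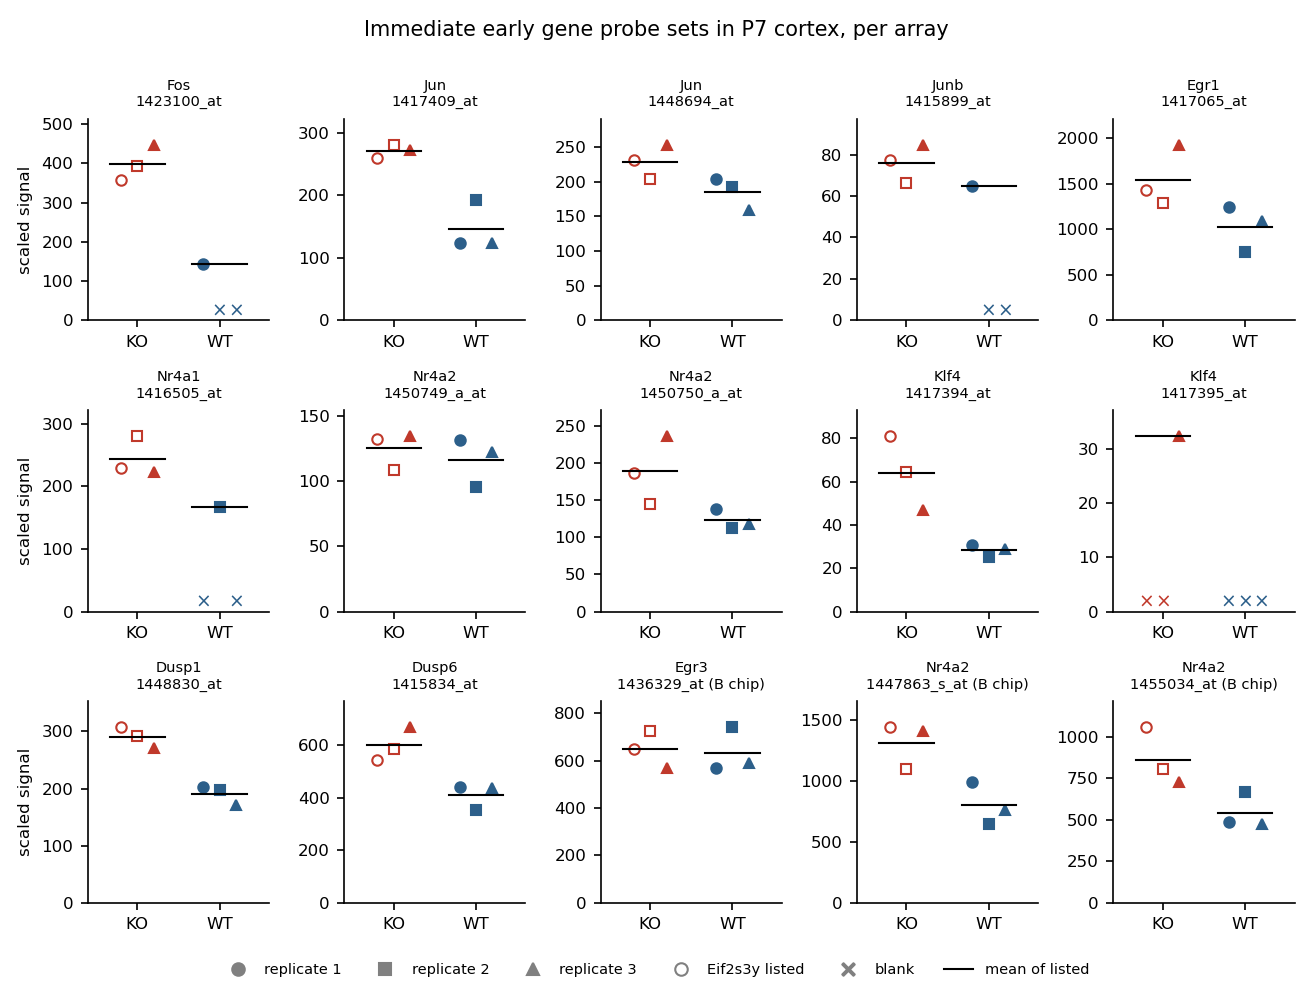
Scaled signal (linear axis from 0) of each immediate early gene probe set listed on at least 1 cortex array, KO left and WT right. Symbols are replicates, open symbols are arrays that list the Y-linked Eif2s3y, crosses are blanks and not zeros, and lines are means of listed arrays. The called Jun (1417409_at), Klf4 (1417394_at), Dusp1 and Dusp6 have all 3 KO arrays above all 3 WT arrays. So do the uncalled Jun 1448694_at, Egr1 and Nr4a2 1450750_a_at, and on the B chip Nr4a2 1447863_s_at and 1455034_at.

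Among the AP-1 genes, Jun encodes the subunit that pairs with Fos and is activated by the kinase JNK. Its brighter A chip probe set, 1417409_at by the mean over arrays, read 259.9, 280.4 and 271.8 in KO cortex, against 123.8, 192 and 124.3 in WT cortex. The KO values lay close together and all above the highest WT value, that of replicate 2. The log2 change was 0.84 (SE 0.15, 95% interval 0.50 to 1.18, limma adjusted p = 0.0134). The other Jun probe set, 1448694_at, had 231.3, 203.5 and 253.1 in KO and 203.4, 192.5 and 159 in WT, and its difference was 0.29 on the log2 scale (limma adjusted p = 0.303). Both Jun probe sets pointed the same way, but the second was not called and its groups were separated by a narrow margin, KO replicate 2 against WT replicate 1.

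Fos, the partner of Jun, read 358.1, 392.7 and 446.5 in KO cortex and 144 in WT replicate 1, and was blank on WT replicates 2 and 3. Junb, a weaker activator than Jun, read 77.5, 66.2 and 84.6 in KO and 64.6 in WT replicate 1, with the same 2 WT arrays blank. Both genes were thus listed more often in KO, and neither could be tested. With blanks set to a low signal of 31.5, the log2 change of Fos was 2.54 (limma adjusted p = 0.0312). That of Junb was 0.70 (limma adjusted p = 0.22). These sizes and p-values rest on the value put in for WT replicates 2 and 3, so they are no test of either gene. Listing on 3 KO arrays and 1 WT array occurred for 0.663% of all A chip probe sets, and the mirror pattern for 0.605%.

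Egr1 and Egr3 encode zinc finger factors that are standard markers of recent neuronal activity. Egr1 read 1429.3, 1285 and 1925.3 in KO cortex, against 1239.5, 748.1 and 1086.5 in WT cortex. KO replicate 3 was the highest array, and the lowest KO array exceeded the highest WT array by a small margin. The log2 change of 0.60 (SE 0.18, 95% interval 0.20 to 0.99) did not pass the threshold (limma adjusted p = 0.122). Egr3, blank on the A chip, read 649.8, 727.3 and 570.1 in KO and 570.5, 740.6 and 588.6 in WT on the B chip. Its groups overlapped fully, with a log2 change of 0.04 (95% interval -0.30 to 0.38, limma adjusted p = 0.993).

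Nr4a1 and Nr4a2 encode orphan nuclear receptors that act without a known ligand; Nr4a2 also marks deep cortical and claustral neurons. Nr4a1 read 229.9, 280 and 222.5 in KO cortex and 167.1 in WT replicate 2, with the other 2 WT arrays blank, so it was not tested. Of the A chip probe sets of Nr4a2, 1450750_a_at read 186.9, 144.4 and 235.9 in KO and 137.5, 112.7 and 118.2 in WT. These groups did not overlap, but the difference of 0.54 on the log2 scale was not called (SE 0.16, limma adjusted p = 0.122). The second, 1450749_a_at, overlapped between genotypes, at 0.10 on the log2 scale (limma adjusted p = 0.816). On the B chip 1447863_s_at read 1438.2, 1093.2 and 1408.8 in KO and 993.2, 648.1 and 762.8 in WT, and 1455034_at read 1055, 804.9 and 724.3 in KO and 485.2, 665.1 and 476.2 in WT. Both separated the genotypes without being called (log2 changes 0.71 and 0.65, limma adjusted p = 0.114 and 0.219). On the B chip 0 of 3 tested probe sets of these genes were called and 2 had an unadjusted limma p under 0.05 (7.39% of all tested), where 0.23% of all 7838 were called higher, 0.051% lower and 8.65% had all KO arrays above all WT arrays. The other 2 Nr4a2 probe sets of the B chip were blank on all arrays.

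Klf4 encodes a zinc finger factor known from stem cells and from endothelium, where blood flow induces it. Probe set 1417394_at read 80.9, 64.6 and 46.9 in KO cortex, against 30.7, 25.2 and 29 in WT cortex. The genotypes did not overlap, the WT arrays lay close together and the KO arrays spread widely, with replicate 3 lowest. The means of 64.1 ± 17.0 in KO and 28.3 ± 2.85 in WT (SD, n = 3 each) differ 2.27-fold, and the log2 change was 0.83 (SE 0.18, limma adjusted p = 0.0298). All 3 WT values lay below 31.5, the low signal put in for blanks on this chip. The ratio is thus set against readings near the floor. For this dim probe set the size depends on the offset: the log2 change was 1.12 with an offset of 1 and 0.47 with 64. A second Klf4 probe set was listed on KO replicate 3 alone.

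Dusp1 and Dusp6 encode dual-specificity phosphatases, Dusp1 acting mainly on p38 and JNK and Dusp6 on ERK, and both are induced by the pathways they stop. Dusp1 read 306.9, 292.5 and 271.5 in KO cortex, against 203.4, 197.7 and 171.5 in WT cortex, a difference of 0.57 on the log2 scale (SE 0.11, limma adjusted p = 0.017). Dusp6 read 542.2, 587.5 and 667.8 in KO, against 441, 352.4 and 436 in WT, and the change on the log2 scale was 0.53 (SE 0.11, limma adjusted p = 0.0272). For both phosphatases the genotypes did not overlap, and their means lay further apart than the range within either.

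The 4 calls were close to the threshold. Jun lost its limma call without KO replicate 2 (adjusted p = 0.0713), KO replicate 3 (0.0559) or WT replicate 1 (0.0564). Dusp1 lost it without KO replicate 1 (adjusted p = 0.0696) or KO replicate 2 (0.0718), and Dusp6 without KO replicate 2 (0.0954), KO replicate 3 (0.101) or WT replicate 2 (0.077). Klf4 lost it without KO replicate 1 (adjusted p = 0.102), KO replicate 2 (0.12), WT replicate 1 (0.0744), WT replicate 2 (0.0906) or WT replicate 3 (0.0641). Over all 6 fits with 1 array left out the log2 changes were 0.75 to 1.03 for Jun, 0.50 to 0.61 for Dusp1, 0.43 to 0.60 for Dusp6 and 0.69 to 1.00 for Klf4. With a sex-marker term, the listing of Eif2s3y, which sets KO replicate 3 alone against the WT arrays, 0 of the 4 were called: Jun changed by 0.85 (limma adjusted p = 0.193), Klf4 by 0.51 (0.473), Dusp1 by 0.48 (0.292) and Dusp6 by 0.69 (0.0914).

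**Figure D2:**
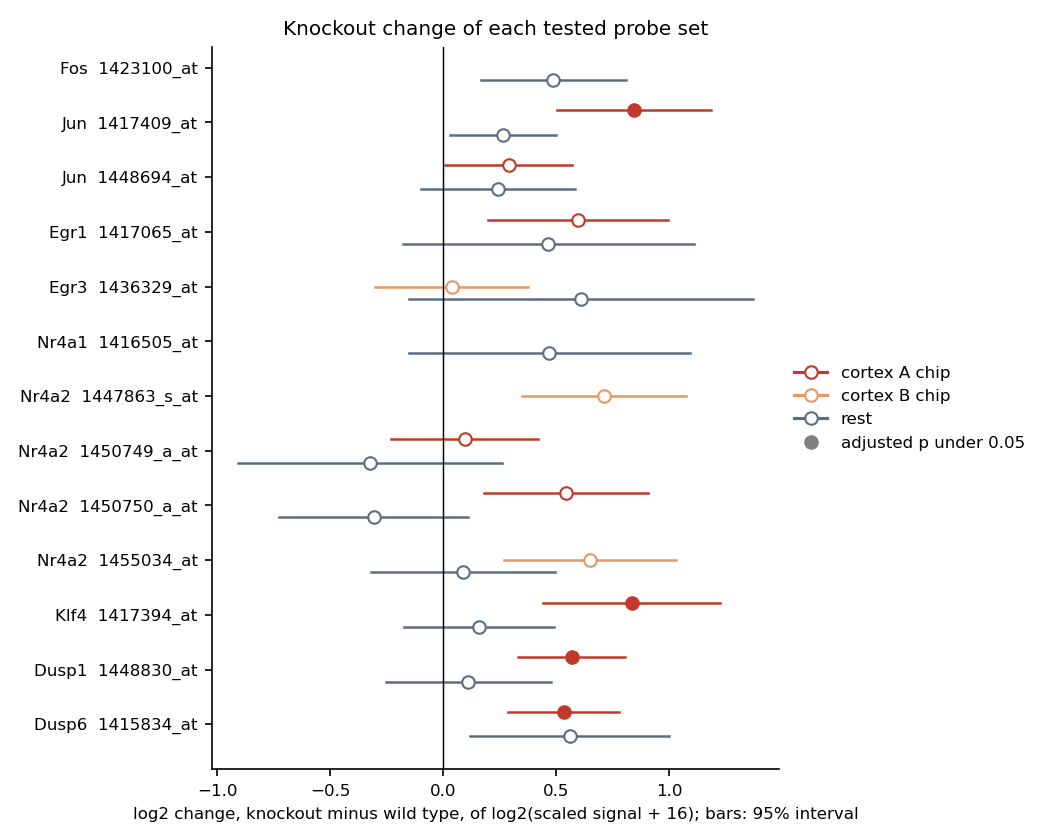
Log2 change, KO minus WT, of each tested immediate early gene probe set (points) with its 95% interval (bars), by table; filled points have a limma adjusted p under 0.05. The 4 filled points, Jun, Klf4, Dusp1 and Dusp6, are all from the cortex A chip, and the 2 Nr4a2 points left of 0 are from the rest table.

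In samples titled rest, 12 probe sets of 9 of the genes were tested and 0 were called in either direction by limma. Of all 21407 tested, 0.145% were called higher and 0.168% lower. An unadjusted limma p under 0.05 was reached by 3 of the 12, against 10.5% of all tested. The log2 change was positive for 10 of the 12, with a median of 0.25, against 0.001 for all tested. Fos, tested here because all arrays listed it, read 496.7, 370.4 and 388.6 in KO, against 346.7, 272.5 and 261.7 in WT. It was the 1 probe set of the 12 with every KO array above every WT array, as 8.42% of all tested had, and its log2 change was 0.49 (SE 0.14, 95% interval 0.17 to 0.81, limma adjusted p = 0.254). Dusp6 read 797.6, 429.4 and 631.9 in KO and 388.5, 355.5 and 472 in WT, and differed by 0.56 on the log2 scale without being called (limma adjusted p = 0.347). Jun (1417409_at) read 449.9, 412.1 and 470.9 in KO and 412.2, 342.8 and 348.7 in WT, the groups overlapping by the lowest KO and the highest WT array (log2 change 0.26, limma adjusted p = 0.419).

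KO replicate 1 gave the highest value of 5 of the 8 genes whose leading probe set all arrays of the rest table listed, and KO replicate 2 of none. Egr1 shows this spread, with 1266.9, 611.9 and 834.7 in KO and 888.7, 654.1 and 414.6 in WT; its log2 change of 0.46 (limma adjusted p = 0.633) was 0.19 without KO replicate 1 (adjusted p = 0.88), 0.18 without WT replicate 3 (0.871), 0.709 without KO replicate 2 (0.584) and 0.715 without WT replicate 1 (0.503). Nr4a1 read 328.8, 238.6 and 300.5 in KO and 349.3, 138.4 and 169.7 in WT, where WT replicate 1 was the highest of all 6 arrays; its log2 change of 0.47 was 0.84 without that array and 0.22 without WT replicate 2, not called in either fit. Dusp1 (log2 change 0.11) and Klf4 (0.16) had limma adjusted p of 0.869 and 0.773. Egr3, blank on KO replicate 2, had a log2 change of 0.61 with a wide 95% interval of -0.15 to 1.37 (limma adjusted p = 0.586), and the change was 0.30 without WT replicate 3 and 0.93 without WT replicate 2. The brighter Nr4a2 probe set, 1450749_a_at, was at -0.32 on the log2 scale (limma adjusted p = 0.731) and 1450750_a_at at -0.31 (0.622), while 1455034_at was at 0.09 (0.916). The value of 1450749_a_at moved to -0.01 without KO replicate 3, its lowest array, to -0.20 without WT replicate 2, to -0.55 without KO replicate 1 and to -0.94 with the sex-marker term, uncalled in each. Junb was blank on all 6 arrays. Of the probe sets too thinly listed to test, Nr4a2 1447863_s_at was listed on 1 KO and 3 WT arrays, the second Klf4 probe set on 1 KO and 2 WT arrays and the second Egr3 probe set on 0 KO arrays and 1 WT array. How often such unequal listing occurs over all rest probe sets was not counted, so nothing is read from it. A further pair of Nr4a2 probe sets was blank on all arrays.

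**Figure D3:**
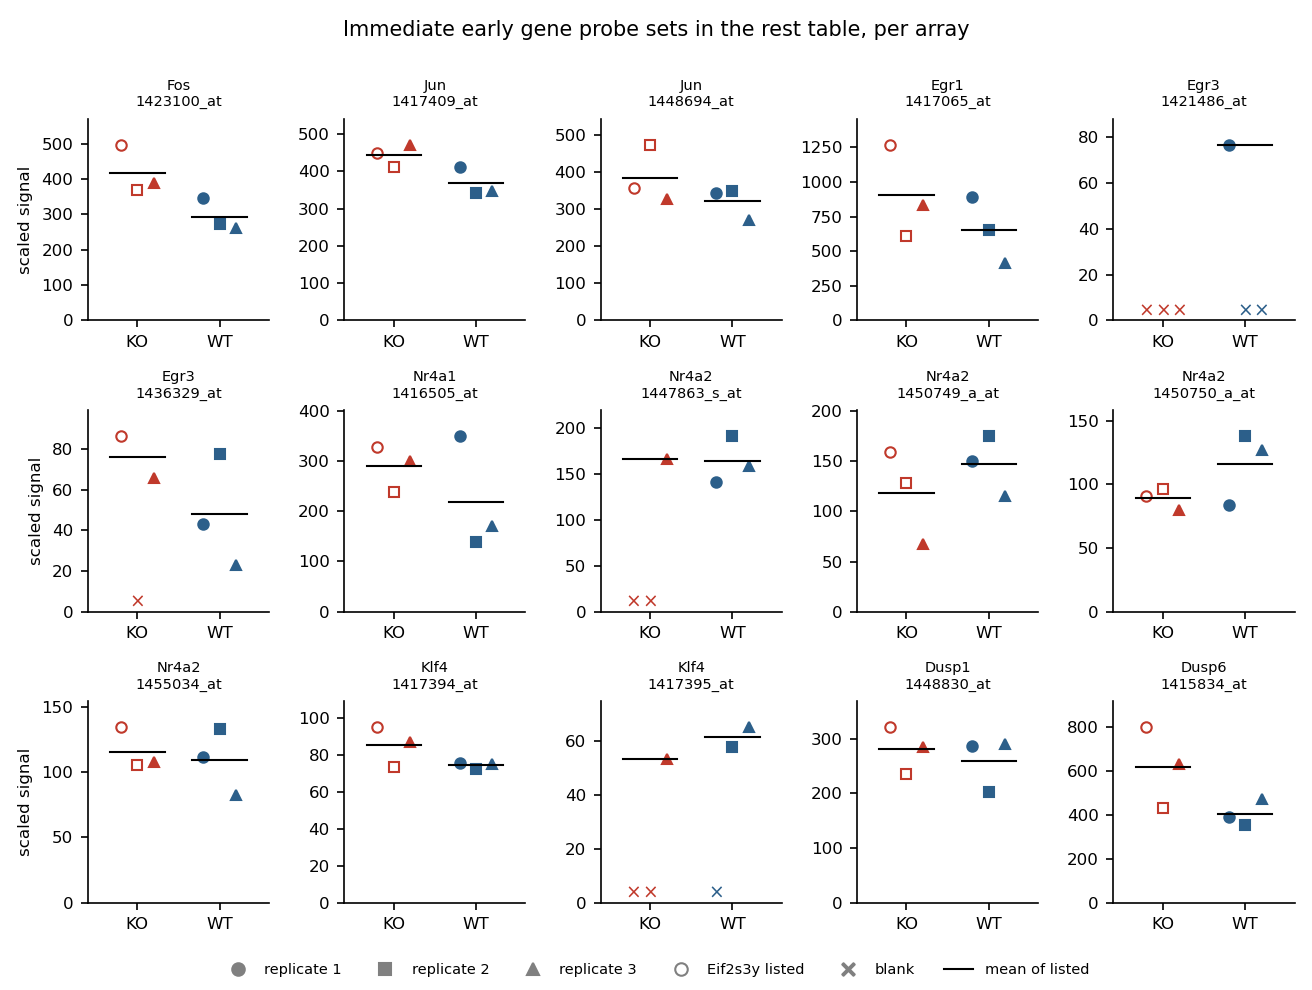
Scaled signal (linear axis from 0) of each immediate early gene probe set listed on at least 1 array of the rest table, KO left and WT right, drawn as for the cortex (crosses are blanks, open symbols list Eif2s3y). Fos has all 3 KO arrays above all 3 WT arrays; KO replicate 1 (circle) is the highest array for Fos, Egr1, Klf4, Dusp1 and Dusp6.

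Whether the KO change differs between rest and cortex was tested as an interaction on the 8 probe sets tested in both the rest table and the A chip. Rest and cortex were read on different array types, so a difference by sample and a difference by array type cannot be told apart. By limma 0 of the 8 were called, with 4 at an unadjusted p under 0.05 (10.5% of all shared); 0.0502% of the 11959 shared probe sets were called. The largest difference, rest minus cortex, was that of Nr4a2 1450750_a_at at -0.85 (95% interval -1.41 to -0.29, limma adjusted p = 0.239). Klf4 differed by -0.68 (95% interval -1.16 to -0.19, limma adjusted p = 0.29), Jun 1417409_at by -0.58 (-1.001 to -0.16, adjusted p = 0.303) and Dusp1 by -0.46 (-0.89 to -0.03, adjusted p = 0.447). For Dusp6 the difference was 0.03 with a 95% interval of -0.51 to 0.57 (limma adjusted p = 0.982). Differences between the tables are therefore not shown for any of these genes after adjustment.

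The wider immediate early programme was read from 34 further genes, and its counts at an unadjusted p are to be set against the shares of all probe sets given above for each table. On the A chip 15 were tested and 0 were called by limma in either direction; their median log2 change was 0.04 and 3 had an unadjusted p under 0.05. Ier2 (0.57, limma adjusted p = 0.0606), a nuclear protein of the early serum response, the antiproliferative gene Btg2 (0.47, adjusted p = 0.101) and the matricellular gene Ccn1 (0.45, adjusted p = 0.188) had all listed KO arrays above all listed WT arrays, while Jund, Per1, Klf6 and Homer1 lay between -0.14 and 0.04. Arc, Nr4a3, Atf3, Fosl1, Fosl2 and Maff were blank on all A chip arrays. On the B chip 4 genes were tested and 0 called by limma (1 at an unadjusted p under 0.05), with Fosl2 at 0.66 (limma adjusted p = 0.153). The others there were Klf6 at 0.32 (limma adjusted p = 0.808), Nr4a3 at 0.14 (0.931) and Homer1 at -0.38 (0.719). Of 21 tested among rest samples 0 were called (3 at an unadjusted p under 0.05); the neuronal activity factor Npas4 was at -0.63 (limma adjusted p = 0.354), the kinase gene Sik1 at -0.56 (adjusted p = 0.278) and the early response gene Ier3 at 0.36 (adjusted p = 0.435). Of these 3, Npas4 and Sik1 had all listed KO arrays below and Ier3 all above the WT arrays, and the list's median log2 change was 0.01 with 12 of 21 positive.

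Genes that activity induces later were tested for 6 of 12 on the A chip, and 2 rose. Scg2, a precursor of secreted neuropeptides, had 977.4 ± 61.7 in KO and 671.8 ± 49.9 in WT (SD, n = 3 each; log2 change 0.53, limma adjusted p = 0.00589). Bdnf, the neurotrophin, had 72.6 ± 4.78 in KO and 36.2 ± 9.94 in WT (SD, n = 3 each, log2 change 0.78, limma adjusted p = 0.0287). Its WT mean was near the low signal of 31.5, and its log2 change was 1.01 with an offset of 1 and 0.45 with 64. Scg2 stayed called with any 1 array left out, while Bdnf lost its call without WT replicate 1 (limma adjusted p = 0.112) or 2 (0.0869) and without KO replicate 1 (0.0724), 2 (0.0965) or 3 (0.103). With the sex-marker term neither was called (adjusted p = 0.17 for Scg2 and 0.201 for Bdnf). Nptx2, a secreted organiser of glutamate receptors, was at 0.70 without passing (adjusted p = 0.0945). On the B chip 0 of 4 were called by limma (3 at an unadjusted p under 0.05), with Nrn1 at 0.58 (limma adjusted p = 0.0567) and Vgf at 0.65 (adjusted p = 0.279). Of 10 tested among rest samples 0 were called by limma, also 0 at an unadjusted p under 0.05, with a median log2 change of 0.08.

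Of the genes that feed back on ERK, 7 of 13 were tested on the A chip and Spry1, an inhibitor of receptor tyrosine kinase signalling, rose (log2 change 0.57, limma adjusted p = 0.0194). Its call was lost without KO replicate 2 (limma adjusted p = 0.0917), KO replicate 3 (0.0744), WT replicate 1 (0.0811) or WT replicate 2 (0.0669), and with the sex-marker term (0.187). Spry2 (0.34, limma adjusted p = 0.114) and Errfi1 (0.39, adjusted p = 0.13) had KO arrays all above WT arrays without passing. Of 11 tested among rest samples 0 were called (1 at an unadjusted p under 0.05), with Etv4, an ETS factor downstream of ERK, at 0.53 (limma adjusted p = 0.155). Of the inducing factors and cofactors 9 were tested on the A chip; Mef2c, which drives activity-dependent transcription in cortical neurons, fell (log2 change -0.37, limma adjusted p = 0.00875) and 0 rose. The 3 others at an unadjusted p under 0.05 were the ETS factor gene Elk3 at 0.56 (adjusted p = 0.256), the 1 positive value of the 9, the serum response factor coactivator gene Mrtfa at -0.25 (0.29) and Mef2a at -0.17 (0.307). Mef2c lost its call without KO replicate 2 (limma adjusted p = 0.0513) and with the sex-marker term (0.148). Creb1, whose product binds the element capitalised above, was at -0.57 in the rest table (limma adjusted p = 0.0559). There, 0 of 14 inducing factors and cofactors were called by limma and 1 had an unadjusted p under 0.05. In cortex, Creb1 was at 0.01 on the B chip (limma adjusted p = 0.997), where 0 of 6 were called, also 0 at an unadjusted p under 0.05. Of 9 kinases of the ERK, JNK and p38 cascades on the A chip 0 were called by limma, and of 8 heat shock genes 0, with 1 of each list at an unadjusted p under 0.05 and medians of -0.01 for both. Of the AP-1 partners outside the 10 genes 2 were tested and 0 called, also 0 at an unadjusted p under 0.05.

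**Figure D4:**
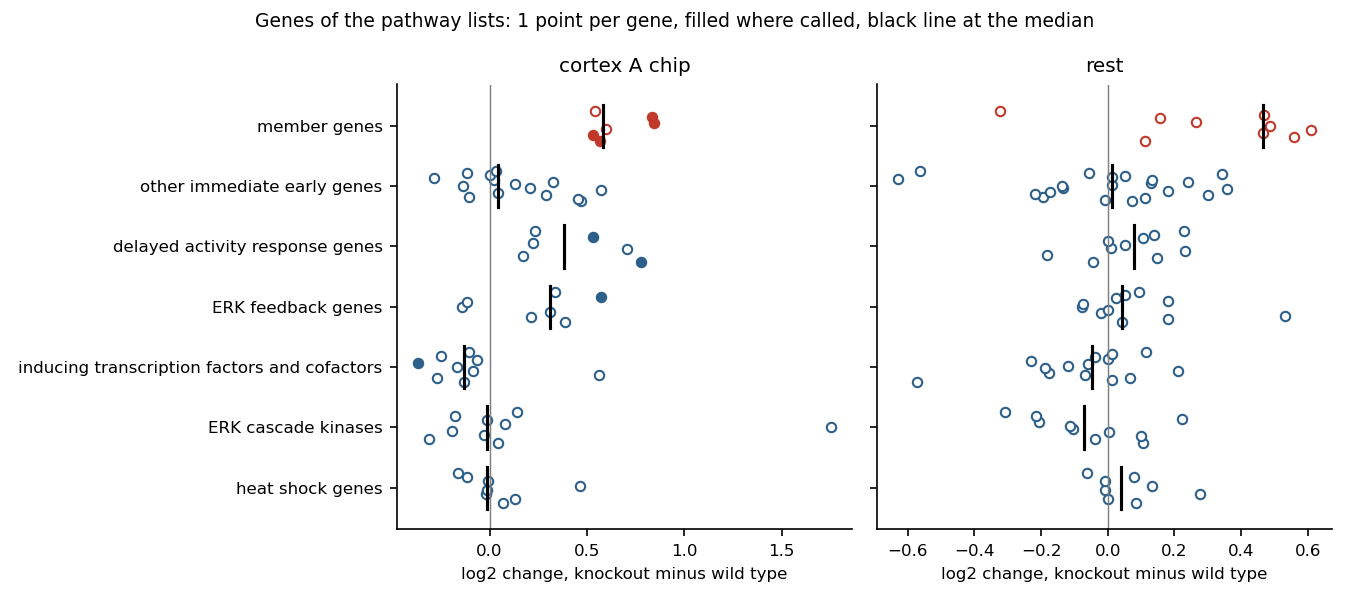
Log2 change, KO minus WT, of the genes tested in each list (1 point per gene, brightest probe set) on the cortex A chip and in the rest table; filled points have a limma adjusted p under 0.05 and black lines are medians. On the A chip the medians are 0.58 for the 6 tested genes of the 10 described here and 0.04 for the 15 further immediate early genes. In the rest table they are 0.46 for the 9 tested genes of the 10 and 0.01 for 21 further ones.

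Markers of other cell types moved with genotype in the cortex, and their part in these results was not tested. Of 10 tested endothelial genes on the A chip 5 rose, among them Cldn5 and Cd34, and the summed signal of the tested genes, with blanks as 0, was 2457 to 2738 in KO and 1767 to 1858 in WT; Pecam1 and Slco1a4 were blank. Of 11 mural and meningeal genes 7 rose, with sums of 7163 to 8639 in KO and 2786 to 3058 in WT, and Acta2, Tagln and Kcnj8 blank. The 7 were Col1a1, Col1a2, Col3a1, Dcn, Slc6a13, Foxc1 and Pdgfrb. Rgs5 (0.31, limma adjusted p = 0.0814) and Abcc9 (0.42, adjusted p = 0.146) were not called, and Cspg4 was at -0.35 (adjusted p = 0.226). Of 11 genes of microglia and macrophages 7 rose, with sums of 4906 to 5300 in KO and 2771 to 3214 in WT, and Cd163 blank. Excitatory neuron genes had overlapping sums, 1841 to 2202 in KO and 1903 to 1990 in WT, with 0 of 7 called by limma and 4 at an unadjusted p under 0.05. Of 9 astrocyte genes 2 rose (sums of 8348 to 10097 in KO and 6910 to 7539 in WT), of 6 oligodendrocyte lineage genes 2 fell (2115 to 2734 in KO and 4016 to 4863 in WT, Mog blank) and of 7 interneuron genes 3 fell (2559 to 3129 in KO and 3129 to 3355 in WT). The 2 brightest of the 7 interneuron genes, Sst (0.23, limma adjusted p = 0.268) and Npy (0.20, adjusted p = 0.297), were the 2 with positive log2 changes. Among rest samples 5 of 14 mural and meningeal genes rose (sums of 10983 to 11313 in KO and 4617 to 8257 in WT, Kcnj8 blank). The 5 were Col3a1, Dcn, Lum, Slc6a13 and Tbx18. Of the 14, 11 had positive log2 changes, while Rgs5, Abcc9 and Cspg4 lay below 0 and were not called. There, 0 of 11 endothelial and 0 of 10 microglial genes were called by limma (2 and 5 at an unadjusted p under 0.05). Oligodendrocyte lineage genes fell for 3 of 8 there (sums of 4902 to 12477 in KO and 18490 to 19668 in WT). Actin probe sets near the 3' end of the message, set against those near its 5' end as a check on RNA degradation, gave ratios of 1.37 to 1.49 in KO and 1.4 to 1.51 in WT on the A chip, 1.94 to 2.4 in KO and 1.86 to 2.16 in WT on the B chip, and 1.66 to 1.96 in KO and 1.64 to 1.7 in WT in the rest table. The highest B chip ratio, 2.4, was that of KO replicate 3, which also listed the fewest probe sets of that chip (33.6%). Without it the B chip log2 changes were 0.66 for Nr4a2 1447863_s_at, 0.77 for Nr4a2 1455034_at and 0.13 for Egr3, none called by limma (adjusted p = 0.245, 0.136 and 0.864).

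Across the 6 A chip arrays, the 6 genes tested there were highest on KO replicate 3 for 3 genes, KO replicate 1 for 2 and KO replicate 2 for 1, so that no single KO array led them all. The genes whose signal was most like the mean standardised profile of these 6 were Aqp4, the astrocyte water channel (Pearson r = 0.997 over 6 arrays), Mlec (0.997), the basement membrane collagen Col4a2 (0.996), the amino acid transporter Slc38a5 (0.995) and the epoxide hydrolase Ephx1 (0.994). These are descriptions: the arrays share the genotype split, and 287 of 6772 genes compared had r above 0.9. Among rest arrays the closest genes to the profile of 8 were Farp1 (0.993), Rcsd1 (0.989), Ube4a (0.985), Chrac1 (0.978) and Atcay (0.978), with 106 of 10370 genes above 0.9 and none of the 5 called between genotypes by limma (adjusted p 0.482 to 0.766).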

How the data were processed

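RNA was measured on 18 Affymetrix arrays in 3 tables of 6. The authors deposited 1 intensity per probe set and array, a signal made with MAS5, per the submitters' processing notes; its version and settings are not given in the sources used here. Many cells are blank, and the labels do not say why. The number of arrays limits the precision. Replicates are separate samples by their titles; nothing says they are separate litters.

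After removal of control probe sets, arrays of a table were brought to 1 mean level (2% trimmed from either end, over probe sets listed on all 6 arrays; factors 0.9477 to 1.059), and log2(signal + 16) was taken. Probe sets listed on at least 2 arrays of each genotype were tested with limma 3.58.1 in R 4.3.3 (eBayes with an intensity trend), with Benjamini-Hochberg adjustment over the table, within each table. The interaction came from a joint limma fit of both tables, which treats cortex and rest arrays as independent. The pipeline was tested on simulated data. Symbols came from the platform annotation, updated by gene identifier through RefSeq; probe sets with several genes were tested but not named.

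A gene's leading probe set is the brightest tested one in its table. From each further list up to 4 genes were named, called ones by size and otherwise by lowest p; genes most like the profile are the 5 with the highest Pearson r. Jund, Per1, Klf6, Homer1, the blank genes and the named markers of cells and regions fall outside these rules or were chosen after their values were seen. The same holds for Creb1 on the B chip. The 10 genes, the lists and the alternatives were chosen with earlier results of these data known. Alternatives were other scalings, offsets, filters, variance models, a replicate block, a sex-marker term and leaving out each array.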

Additional observations from a re-analysis of the deposited data

How the results depend on the processing

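Jun, Klf4, Dusp1 and Dusp6 kept positive log2 changes on the A chip under every alternative that gave a value (Klf4 gave none under the 60th percentile filter), and their combined count of 4 calls was 0 with the sex-marker term and 0 to 3 when 1 array was left out; the cause was not tested. Klf4 (adjusted p = 0.0733) and Dusp6 (0.0652) lost their limma call with blanks set to a low signal, and Dusp6 (0.0691) without a variance trend. Bdnf (0.0703) lost its call with blanks set to a low signal and Mef2c (0.0738) without a trend. With array weights 1 probe set of these genes was called on the B chip, Nr4a2 1447863_s_at (log2 change 0.75, limma adjusted p = 0.032). The count over all A chip probe sets, 364, was 82 with the sex-marker term, 607 at an adjusted p under 0.10 and 186 to 327 when 1 array was left out. The B chip count of 22 was 13 with blanks set to a low signal, 9 without a variance trend, 66 with array weights, 48 at an adjusted p under 0.10 and 9 to 25 when 1 array was left out. The rest count of 67 was 113 with blanks set to a low signal, 11 without a trend, 10 with the sex-marker term, 161 at an adjusted p under 0.10 and 13 to 68 when 1 array was left out. The interaction count of 6 was 3 with an offset of 64, 20 with blanks set to a low signal, 1 above the 60th percentile of the mean level, 3 without a trend, 0 with the sex-marker term, 16 at an adjusted p under 0.10 and 3 to 28 when 1 array was left out.

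Changes that turned sign were small and uncalled: Egr3 on the B chip (-0.138 with the sex-marker term, -0.0462 to 0.153 when 1 array was left out), Nr4a2 1450749_a_at on the A chip (-0.0254 to 0.185), Nr4a2 1455034_at (-0.0747 to 0.222) and Dusp1 (-0.0477 to 0.225) in the rest table, and the differences between tables of Dusp6 (-0.0601 with the sex-marker term, -0.172 to 0.262), Jun 1448694_at (-0.198 to 0.0594) and Egr1 (-0.416 to 0.119).

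With the replicate number as a replicate block, 305 probe sets were called on the A chip, 5 of them of these genes because Egr1 was added (0.60, limma adjusted p = 0.0305), 12 on the B chip and 142 in the rest table. In no table did the deviations of every same-numbered KO and WT pair correlate above 0.1 (correlations A chip -0.009 to 0.019, B chip 0.072 to 0.159, rest 0.023 to 0.251), so the samples share a number and are not shown to be pairs; on the B chip every KO array correlated best with its own number, in the others not every one did. A block for animals across tables called 7 interactions, 0 of them of these genes. Blanks limit what can be said of Fos, Junb and Nr4a1 in the cortex.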
